A study of Arabidopsis thaliana with 16 samples.

Results

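Seedlings of Arabidopsis thaliana mutated in MRG1, MRG2 and PIF4 (labelled mrg1 mrg2 pif4 and called the triple mutant below) were compared with seedlings mutated in MRG1 and MRG2 alone (mrg1 mrg2, the double mutant), all kept at 22 °C. The comparison rested on 2 libraries of each genotype, which are 4 of the 16 libraries in the series. It took in every gene that passed a filter on low counts, 19978 of the 33602 genes in the deposited table. By their labels both groups carry the mrg1 and mrg2 mutations in the Col-0 strain, so the pif4 mutation is the labelled difference between them. The seedlings were 6 days old, had grown on agar under constant white light, and were harvested whole. The same genotypes after 3 h at 28 °C, and the single mutant pif4 and WT at 22 °C, served for a comparison of changes in libraries other than these 4.

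PIF4 encodes a bHLH transcription factor that accumulates in the nucleus and binds the G-box CACGTG in promoters, where it promotes elongation growth through auxin and cell wall genes. Its activity is restrained by phytochrome B in the light and rises in warmth. MRG1 and MRG2 are paired chromodomain proteins that recognise methylated lysines of histone H3 and act with histone acetyltransferases on gene activity, and PIF4 and the MRG proteins have been linked in the response of seedlings to warm temperature. At 22 °C the comparison asks how transcripts differ with a pif4 mutation where MRG1 and MRG2 are already mutated.

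The targeted transcripts did not separate the groups. PIF4 (AT2G43010, chr2:17886101-17889087, build TAIR10.1) held 329 and 390 reads in the libraries labelled mrg1 mrg2 pif4, against 365 and 375 in the libraries labelled mrg1 mrg2. The log2 change was −0.05 ± 0.09 with an adjusted p of 0.807, and the groups overlapped. MRG1 (AT4G37280) held 44 and 41 reads in the triple mutant, against 64 and 41 in the double mutant, and MRG2 (AT1G02740) held 3 and 2 reads, against 4 and 8. Neither differed between the groups by the test (adjusted p = 0.462 for MRG1 and 0.363 for MRG2). In the 4 libraries of WT and pif4 at 22 °C, MRG1 had 168 to 219 reads and MRG2 had 69 to 99. Both groups compared here thus held fewer reads of the 2 genes that their labels give as mutated. MRG1 was reduced but kept 41 to 64 reads, while MRG2 kept 2 to 8. PIF4 did not separate the single mutant from WT at 22 °C either. It held 207 and 303 reads in the libraries labelled pif4, against 289 and 287 in WT (−0.18 ± 0.10, adjusted p = 0.302 by the same test). No transcript of a mutated gene therefore checks the pif4 label of the triple mutant libraries, and "triple mutant" stands below for the libraries so labelled.

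Totals were 9108000 and 9399093 counts in the triple mutant libraries, against 9574845 and 9169092 in the double mutant libraries, where the 16 libraries ran from 7186066 to 11363353. A floor of 3 counts came to 0.313 to 0.329 CPM (counts scaled to a common library total) in these 4 libraries, and such floors cover counting error only. The ribosomal RNA gene AT3G41768 took 5.66% and 7.29% of the counts in the triple mutant, against 6.48% and 8.23% in the double mutant, and plastid genes took 1.88% and 2.59%, against 2.38% and 2.98%. The labels give no statement that replicate libraries are separate cultures, so p-values measure the spread between libraries, which may be technical. Levels are given in CPM scaled by TMM factors. The ± beside a log2 change gives an approximate standard error, computed as that change in size over the square root of the F statistic from edgeR. "Rose", "fell" and "changed" are used of genes with an adjusted p under 0.05. Every change is the triple mutant relative to the double mutant unless another pair is named.

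Of the 19978 genes tested, 970 rose (4.86%) and 1001 fell (5.01%), so that 1971 changed (9.87%). The changes were small: their median size was 0.41 on the log2 scale, with 113 genes rising and 82 falling by at least 2-fold. The libraries of the 2 genotypes did not overlap for 1970 of the 1971 genes that changed and for 10351 of all genes tested (51.8%). The median change of all genes was −0.01. Both counts depended on the number of libraries: 540 rose and 514 fell without double mutant replicate 1, 564 and 625 without double mutant replicate 2, 619 and 599 without triple mutant replicate 1, and 593 and 507 without triple mutant replicate 2. Scaling by library totals alone left 880 that rose and 576 that fell. In whole seedlings, fewer cells of a type and less RNA per cell cannot be told apart.

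**Figure D1:**
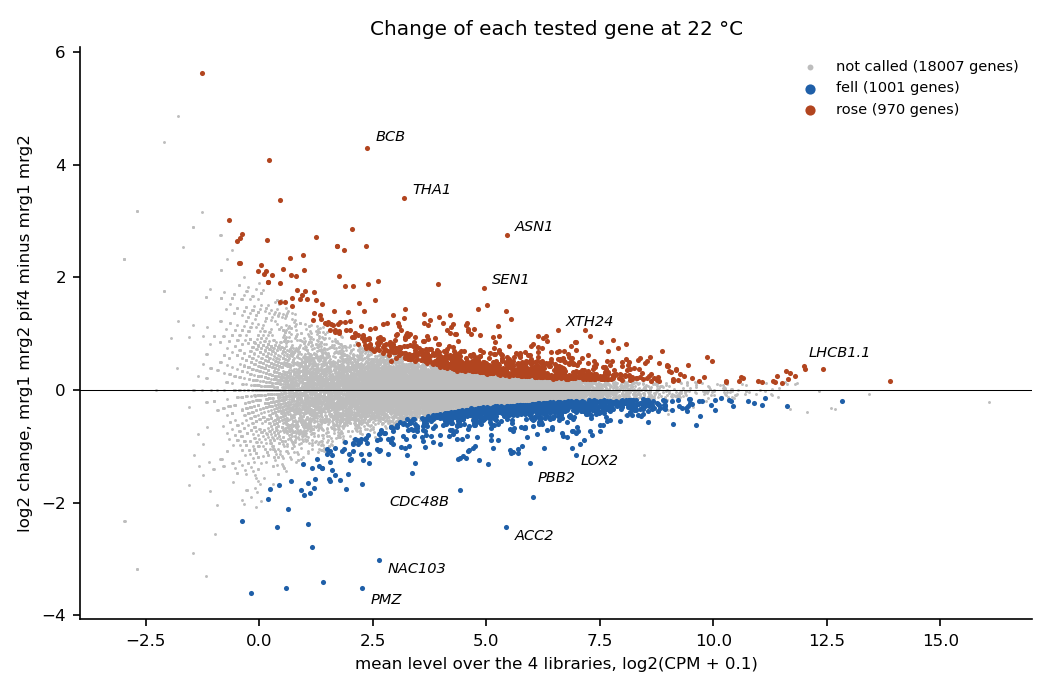
Each point is a tested gene, with its mean level over the 4 libraries (log2 of CPM + 0.1) on the horizontal axis and its log2 change, mrg1 mrg2 pif4 minus mrg1 mrg2 at 22 °C, on the vertical axis. The 970 genes that rose and the 1001 that fell are coloured, and most of them lie close to 0 at moderate to high levels, while a few such as BCB, ASN1, ACC2 and PMZ stand far from it.

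Genes of the sugar starvation response were higher, and so were some single genes of amino acid metabolism. ASN1 (AT3G47340, chr3:17437840-17441431), the asparagine synthetase that is switched on in darkness and starvation, had 75.5 and 76.0 CPM in the triple mutant, against 11.2 and 11.3 CPM in the double mutant. Both triple mutant libraries were thus far above both double mutant libraries, and the change of 2.75 ± 0.08 (adjusted p = 8.97e-24) had the smallest p among the genes named here. THA1 (AT1G08630), a threonine aldolase that breaks down threonine, had 16.4 and 16.5 CPM in the triple mutant and 1.24 and 1.88 CPM in the double mutant, a change of 3.4 ± 0.23 (3.00e-13). BCAT2 (AT1G10070), a transaminase of branched-chain amino acids, had 7.89 and 9.10 CPM, against 1.14 and 1.76 CPM in the double mutant, and rose by 2.55 ± 0.29 (2.97e-08). The groups did not overlap for either gene.

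SEN1 (AT4G35770), a gene induced by darkness and senescence, had 44.1 and 51.5 CPM in the triple mutant, against 16.4 and 10.9 CPM in the double mutant, and rose by 1.80 ± 0.12 (adjusted p = 1.11e-13). DIN10 (AT5G20250), a raffinose synthase gene induced in the dark, had 340 and 351 CPM, against 205 and 190 CPM in the double mutant, a change of 0.81 ± 0.05 (2.65e-14). BGAL4, a beta-galactosidase of the same dark-induced group, had 81.2 and 85.6 CPM, against 45.7 and 49.6 CPM in the double mutant, and rose by 0.81 ± 0.07 (1.50e-10). Over the list of 17 sugar starvation and darkness genes, 16 were tested, of which 13 rose (81.2%, beside 4.86% of all genes) and 0 fell. The median change of the 16 was 0.50, beside −0.01 over all genes tested, and the summed level of the list was 1253 and 1299 CPM in the triple mutant, against 826 and 794 CPM in the double mutant. With any library left out, 12 or 13 of the 16 rose.

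Several other large rises were in genes outside that list. BCB (AT5G20230, chr5:6826365-6827748), a blue copper protein of the cell surface, had 9.59 and 9.84 CPM in the triple mutant, from 90 and 93 reads, against 0.413 and 0.551 CPM in the double mutant, from 4 and 5 reads. Its change of 4.30 ± 0.35 (adjusted p = 2.23e-11) was the largest among the genes that rose and reached a mean of 5 CPM in a group. AT4G36880, annotated as a cysteine proteinase, had 24.4 and 23.5 CPM, against 6.31 and 6.73 CPM in the double mutant, and rose by 1.88 ± 0.17 (1.29e-10). DELTA-VPE, a vacuolar processing protease, rose by 1.85 ± 0.32 and GAT1_2.1, annotated as a glutamine amidotransferase, by 2.03 ± 0.33. GH9B15, a glycosyl hydrolase of the endoglucanase family, rose by 2.85 ± 0.36, ATCSLB05 of the cellulose synthase family by 2.56 ± 0.38 and PGAZAT, a polygalacturonase that cuts pectin, by 1.88 ± 0.27. These 5 had at most 8.46 CPM in any of the 4 libraries.

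**Figure D2:**
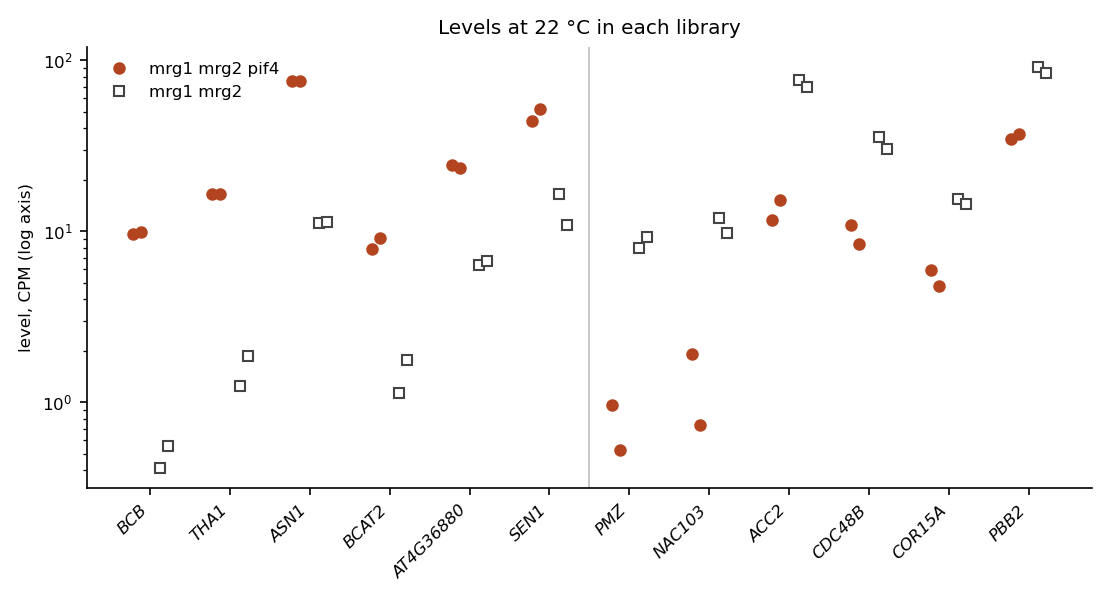
Level of 12 genes in each library at 22 °C, in CPM on a log axis, with filled circles for the 2 mrg1 mrg2 pif4 libraries and open squares for the 2 mrg1 mrg2 libraries. In each of the 6 genes on the left both circles lie above both squares (ASN1 at 75.5 and 76.0 CPM against 11.2 and 11.3 CPM), and in each of the 6 on the right both lie below (ACC2 at 11.6 and 15.2 CPM against 76.3 and 69.3 CPM).

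The genes that fell most were of mixed function. PMZ (AT3G28210), an AN1-type zinc finger gene of the stress response, had 0.959 and 0.529 CPM in the triple mutant, against 7.96 and 9.26 CPM in the double mutant, a change of −3.51 ± 0.38 (adjusted p = 1.17e-08). NAC103 (AT5G64060), a NAC transcription factor of the unfolded protein response, had 1.92 and 0.740 CPM, against 12 and 9.71 CPM in the double mutant, a change of −3.02 ± 0.30 (2.70e-09). Both genes were near the floor in the triple mutant, so the sizes of their changes rest on few reads. Of the 11 unfolded protein response genes tested, NAC103 included, 4 fell (36.4%, beside 5.01% of all genes) and 0 rose, with a median of −0.09.

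ACC2 (AT1G36180, chr1:13545965-13558600), an acetyl-CoA carboxylase of fatty acid synthesis, had 11.6 and 15.2 CPM in the triple mutant, against 76.3 and 69.3 CPM in the double mutant, and changed by −2.44 ± 0.11 (adjusted p = 7.03e-18). Its neighbour and related copy ACC1 had 247 and 265 CPM, against 265 and 254 CPM in the double mutant, a change of −0.02 ± 0.06 (0.899). Reads that the related copies share could not be traced, because the options of the counting step are unknown here. COR15A, a cold-regulated protein of the chloroplast, had 5.97 and 4.76 CPM, against 15.4 and 14.5 CPM in the double mutant, and changed by −1.48 ± 0.25 (5.67e-05). AT1G31690, a copper amine oxidase, changed by −1.32 ± 0.13 (1.80e-09), and chr31, a chromatin remodelling factor annotated by that name, by −1.67 ± 0.30 (0.000155). The libraries of the 2 genotypes did not overlap for any of these 4 genes that fell.

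Most genes of the 26S proteasome fell. Their list was added after the data were seen, so its counts describe the group and support nothing by themselves. The 26S proteasome is the complex that degrades proteins tagged with ubiquitin. Its core is a barrel of alpha and beta subunits, the beta subunits carry the cutting sites, and its cap holds RPT ATPases that unfold the substrate and RPN subunits that recognise it. Of 45 genes listed as subunits, 44 were tested, 40 fell (90.9%, beside 5.01% of all genes) and 0 rose, and the change of all 44 was below 0. The median was −0.67 (range −1.29 to −0.06), beside −0.01 over all genes, and 42 of the 44 did not overlap between the groups, where 51.8% of all genes tested did not. With any library left out, 38 to 40 fell.

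In the core, all 11 alpha subunit genes fell, with a median of −0.79. PAD1 had 78.0 and 78.3 CPM in the triple mutant, against 163 and 186 CPM in the double mutant, a change of −1.16 ± 0.07 (adjusted p = 2.65e-14). PAD2, PAA2 and PAG1 changed by −1.13 ± 0.09, −1.03 ± 0.07 and −0.96 ± 0.07, and PAA1, the alpha gene that fell least, by −0.49 ± 0.07. All 10 beta subunit genes fell, with a median of −0.70. PBB2 had 34.6 and 36.9 CPM, against 91.2 and 84.4 CPM in the double mutant. Its change of −1.29 ± 0.09 (1.86e-13) was the largest among the listed subunit genes. PBD2 changed by −1.10 ± 0.09 and PBG1 by −0.83 ± 0.07.

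In the cap, 7 of 9 listed RPT genes fell, with a median of −0.65 over the 9. RPT2A had 102 and 97.5 CPM in the triple mutant, against 190 and 180 CPM in the double mutant, a change of −0.89 ± 0.06 (adjusted p = 9.40e-13). RPT5B changed by −1.25 ± 0.12 and RPT3 by −0.80 ± 0.06. Of the 14 RPN genes tested 12 fell, with a median of −0.62. RPN10, a receptor for ubiquitin chains, had 94.7 and 91.6 CPM, against 152 and 163 CPM in the double mutant, and changed by −0.76 ± 0.07 (2.85e-10). AT4G19006, annotated as a PCI domain protein of the proteasome, changed by −1.05 ± 0.09 and RPN1A by −0.62 ± 0.06.

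The 4 subunit genes that were not called lay near 0. RPT6A changed by −0.15 ± 0.07 (adjusted p = 0.212), AT1G53780, annotated as a regulatory ATPase, by −0.06 ± 0.09 (0.752), AT5G45620, a PCI domain protein like AT4G19006, by −0.14 ± 0.09 (0.410) and RPN13, another ubiquitin receptor, by −0.11 ± 0.11 (0.604). RPT6A is the neighbour of AT5G20000 (chr5:6756633-6759800), which is annotated as an AAA-type ATPase and stands outside the list. The counts, medians and range of the subunit genes leave AT5G20000 out, and that annotation does not settle whether it is a further subunit gene. AT5G20000 had 26.9 and 27.7 CPM in the triple mutant, against 102 and 103 CPM in the double mutant, a change of −1.91 ± 0.09 (2.32e-17). That fall was larger than the fall of any listed subunit gene. Reads shared by related subunit genes could not be traced, so the split between such copies is uncertain. As counted, several paired genes changed by unequal amounts. RPT5B changed by −1.25 ± 0.12 and RPT5A by −0.35 ± 0.06, PBB2 by −1.29 ± 0.09 and PBB1 by −0.53 ± 0.07, and PAA2 by −1.03 ± 0.07 and PAA1 by −0.49 ± 0.07, each a difference beyond the standard errors of the pair but not tested as such.

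Some partners of the proteasome also fell. CDC48B (AT3G53230), an ATPase that extracts ubiquitinated proteins from complexes, had 10.9 and 8.46 CPM in the triple mutant, against 35.6 and 30.4 CPM in the double mutant, a change of −1.77 ± 0.13 (adjusted p = 6.32e-13). Its more abundant relative CDC48A had 441 and 436 CPM, against 677 and 654 CPM in the double mutant, and changed by −0.60 ± 0.05 (2.15e-11), while CDC48C changed by 0.05 ± 0.10 (0.814). PA200, an activator that binds the end of the core, changed by −0.61 ± 0.08 and AT1G67250, a proteasome maturation factor, by −0.89 ± 0.10. Of 8 such activator, assembly and CDC48 genes 7 were tested, and 4 fell (57.1%, beside 5.01% of all genes) and 0 rose.

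**Figure D3:**
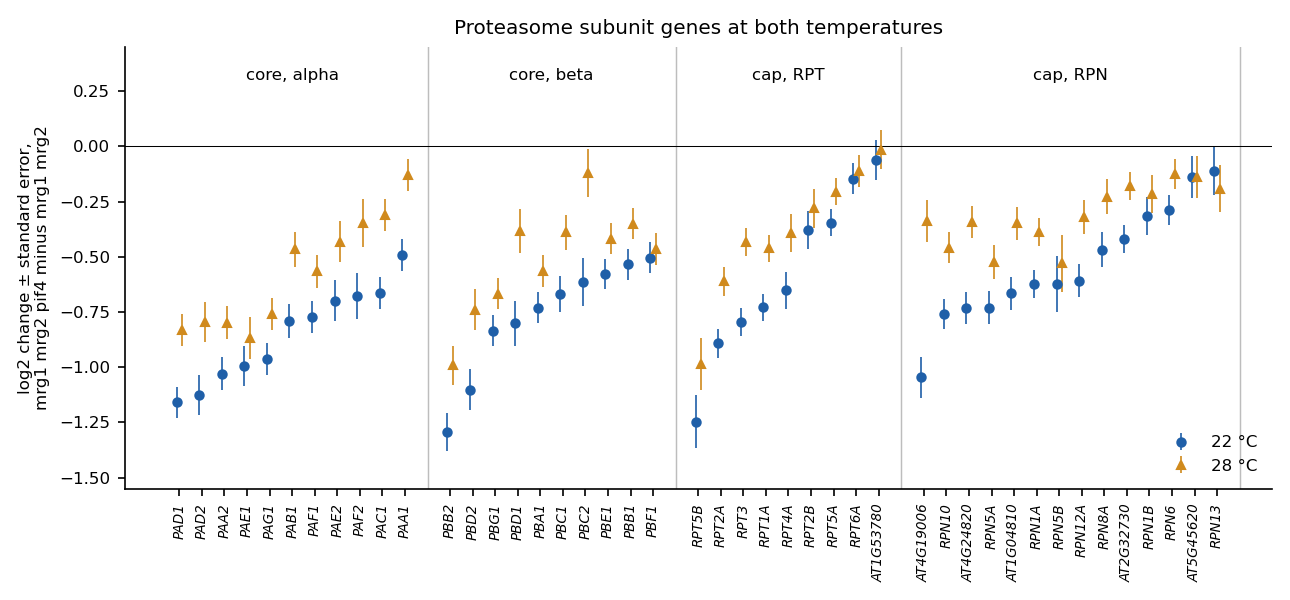
Log2 change, mrg1 mrg2 pif4 minus mrg1 mrg2, of the 44 tested proteasome subunit genes in the 4 subunit classes, with bars of ± 1 approximate standard error. Circles (22 °C) lie below 0 for all 44 genes, between −1.29 for PBB2 and −0.06 for AT1G53780, and triangles (28 °C) lie below 0 too, with a median of −0.39 against −0.67 at 22 °C.

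The 250 bases upstream of the annotated start were read for 5 of the subunit genes that fell most, taken in order of size among those whose window overlapped no other annotated gene, and for RPN13, which was not called. They are shown because the subunit genes moved together and because TGGGC, the core of a site bound by TCP factors in promoters of plant housekeeping genes, was searched in them on both strands. Capitals mark TGGGC or its reverse complement GCCCA. All are from build TAIR10.1, written 5′ to 3′ on the strand of the gene.
PBB2, chr5:16250926-16251175, minus strand: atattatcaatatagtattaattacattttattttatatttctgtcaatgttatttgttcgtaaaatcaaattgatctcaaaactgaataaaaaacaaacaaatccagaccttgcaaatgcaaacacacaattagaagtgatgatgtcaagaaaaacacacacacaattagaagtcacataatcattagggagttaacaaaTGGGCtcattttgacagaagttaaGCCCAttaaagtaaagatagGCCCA
PAA2, chr2:2233769-2234018, plus strand: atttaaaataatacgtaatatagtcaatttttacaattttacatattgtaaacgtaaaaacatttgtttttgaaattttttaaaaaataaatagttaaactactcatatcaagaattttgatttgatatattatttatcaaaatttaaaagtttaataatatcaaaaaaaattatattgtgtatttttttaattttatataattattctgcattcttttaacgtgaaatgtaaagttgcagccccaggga
PAE1, chr1:20106078-20106327, minus strand: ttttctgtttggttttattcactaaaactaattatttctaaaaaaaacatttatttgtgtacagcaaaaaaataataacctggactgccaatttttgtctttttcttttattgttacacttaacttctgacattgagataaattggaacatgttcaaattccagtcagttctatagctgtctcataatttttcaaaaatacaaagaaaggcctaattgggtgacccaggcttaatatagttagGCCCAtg
PAG1, chr2:11531179-11531428, minus strand: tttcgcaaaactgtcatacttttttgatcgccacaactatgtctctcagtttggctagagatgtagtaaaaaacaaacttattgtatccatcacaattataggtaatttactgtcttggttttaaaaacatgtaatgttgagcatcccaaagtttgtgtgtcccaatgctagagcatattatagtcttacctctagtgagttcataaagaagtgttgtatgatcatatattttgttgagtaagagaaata
RPT2A, chr4:14312033-14312282, plus strand: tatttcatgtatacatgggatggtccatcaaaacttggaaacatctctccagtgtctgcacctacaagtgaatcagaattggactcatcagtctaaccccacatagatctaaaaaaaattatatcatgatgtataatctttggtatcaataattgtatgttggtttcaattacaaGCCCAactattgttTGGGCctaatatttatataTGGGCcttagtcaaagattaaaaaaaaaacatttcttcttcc
RPN13, chr2:11315525-11315774, minus strand: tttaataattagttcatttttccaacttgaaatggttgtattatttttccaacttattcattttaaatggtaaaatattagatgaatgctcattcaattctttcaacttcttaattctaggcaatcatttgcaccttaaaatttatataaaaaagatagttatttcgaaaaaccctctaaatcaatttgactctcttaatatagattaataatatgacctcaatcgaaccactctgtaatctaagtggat
PBB2 and RPT2A held 3 copies each, PAE1 held 1, and PAA2, PAG1 and RPN13 held 0, so that 2 of the genes with large falls had none in this window. Over the 44 subunit genes, TGGGC on either strand stood in 22 windows (50%), and 17 of them (38.6%) held at least 2 copies. In all 19823 windows of tested genes it stood in 25.8%, in those of genes that fell in 38% and in those of genes that rose in 18.5%. The G-box CACGTG, which PIF proteins bind, stood in 1 of the 44 subunit windows (2.27%), in 8.19% of the windows of genes that fell, in 7.84% of those of genes that rose and in 7.36% of all windows. A match is a description of these windows only, and it shows no binding.

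Genes of ribosomal proteins, which build the translation machinery, moved in the same direction with smaller changes. Their list, too, was added after the data were seen. Of 324 genes annotated as ribosomal proteins outside the organelles, 293 were tested, 157 fell (53.6%, beside 5.01% of all genes) and 0 rose, with a median of −0.26. AT5G02960, which encodes a protein of the small subunit, had 313 and 285 CPM in the triple mutant, against 414 and 395 CPM in the double mutant, a change of −0.44 ± 0.06 (adjusted p = 8.65e-07). The count was less stable than that of the proteasome: it was 99 without double mutant replicate 1 and 88 without triple mutant replicate 2. TGGGC stood in 59.0% of the 293 ribosomal windows and the motif AAACCCTA, known from promoters of translation genes and also searched on both strands, in 14.0%, beside 3.52% of all windows. Genes of the plastid genome had a median of −0.31 over the 97 tested, with 11 that fell (11.3%, beside 5.01% of all genes) and 0 that rose. The plastid median moved with the library left out: it was −0.15 without double mutant replicate 2, −0.13 without triple mutant replicate 1 and −0.62 without triple mutant replicate 2. With a replicate block it was −0.32. The number that fell was 5 without double mutant replicate 1, 6 without double mutant replicate 2, 2 with DESeq2, 21 and 24 in fits of the 4 compared libraries or of the 6 mutant libraries at 22 °C, and 40 with a replicate block. The 34 tested genes of the mitochondrial genome had a median of −0.33 with 0 called, and that median was 0.04 without triple mutant replicate 1, −0.0026 without double mutant replicate 2, −0.57 without double mutant replicate 1 and −0.76 without triple mutant replicate 2, so no direction is given for them. Leaving a library out makes the replicate numbers unequal between the genotypes, and replicate 2 had the larger organelle shares in both genotypes. Within each replicate number the triple mutant had the lower shares. The mitochondrial share of counts was 0.739% against 0.966% in replicate 1 and 1.01% against 1.2% in replicate 2. The plastid share was 1.88% against 2.38% and 2.59% against 2.98%. The part of these mitochondrial and plastid shares in the medians and counts was not tested.

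**Figure D4:**
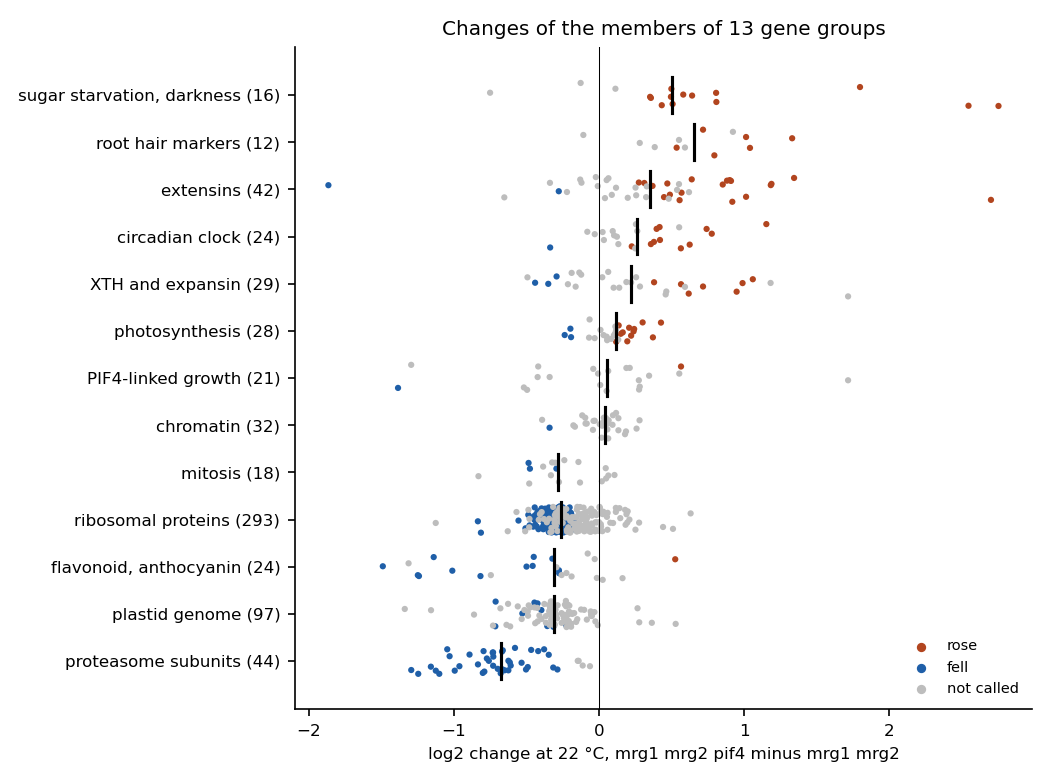
Log2 change at 22 °C of the tested members of 13 gene groups, with the number tested in brackets, coloured by whether they rose, fell or were not called, and a black bar at the median. Proteasome subunits (median −0.67) and ribosomal proteins (−0.26) lie left of 0, sugar starvation genes (0.50), root hair markers (0.66) and extensins (0.35) lie right of it, and chromatin factors (0.04) are centred near it.

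Among genes of root hairs and of the cell wall, more rose than fell. Root hairs are tubular outgrowths of single root epidermal cells, with walls rich in extensins and other structural proteins. Of 12 root hair markers 6 rose (50%, beside 4.86% of all genes) and 0 fell (beside 5.01%), with a median of 0.66, and their summed level was 116 and 112 CPM in the triple mutant, against 64.3 and 68.9 CPM in the double mutant. The count of rises was 3 without double mutant replicate 1, and 3 with DESeq2. PRP3, a proline-rich wall protein of root hairs, had 33.5 and 31.4 CPM, against 14.7 and 16.9 CPM in the double mutant, a change of 1.04 ± 0.11 (adjusted p = 1.46e-08). PRP1 rose by 1.33 ± 0.21 and LRX1, a leucine-rich extensin that shapes the hair wall, by 1.01 ± 0.18.

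General root markers did not move with them. Of 11 tested, 0 were called and the median was 0.09, with a summed level of 280 and 280 CPM in the triple mutant, against 266 and 254 CPM in the double mutant. Seed markers were near the floor, with sums of 8.53 and 6.35 CPM, against 2.38 and 2.65 CPM in the double mutant, 1 of the 7 tested rose, and CRB and SESA1 were at 0 in all 4 libraries. Flower markers summed to 4.05 and 4.23 CPM, against 1.96 and 3.97 CPM in the double mutant. Markers of shoot meristem and epidermis summed to 617 and 617 CPM, against 646 and 638 CPM in the double mutant, with WUS at 0 in all 4 libraries and 1 of 11 tested called, which fell. Whether the number of root hairs or the RNA of each hair differed was not tested.

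Of 56 genes annotated as extensins, a list added after the data were seen, 42 were tested. Of these 19 rose (45.2%, beside 4.86% of all genes) and 2 fell (4.76%, near the 5.01% of all genes), with a median of 0.35. AT3G54580 had 103 and 95.1 CPM in the triple mutant, against 52.9 and 51.7 CPM in the double mutant, a change of 0.92 ± 0.07 (adjusted p = 1.14e-11). EXT10 rose by 1.19 ± 0.13 (2.37e-08). Extensin genes carry long repeats and resemble each other, so reads could be split among them in a way that cannot be traced. With a library left out 14 to 19 rose, and the count of falls was 0 without double mutant replicate 2 or with DESeq2, and 1 without double mutant replicate 1 or triple mutant replicate 2 or with library totals. Among 29 XTH and expansin genes, which loosen and remodel the wall during growth, 7 rose (24.1%, beside 4.86% of all genes) and 3 fell (10.3%, beside 5.01%). Fewer fell without double mutant replicate 1 or triple mutant replicate 2. XTH24 had 129 and 127 CPM, against 58.6 and 64.4 CPM in the double mutant, a change of 1.06 ± 0.07 (3.09e-14), XTH14 rose by 0.99 ± 0.12 (7.92e-08), and XTH4 had 339 and 351 CPM, against 263 and 267 CPM in the double mutant, a change of 0.38 ± 0.05 (8.41e-07).

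Aquaporins, the water channels of the plasma membrane and the vacuole, also rose more often than they fell. Their list was added after the data were seen. Of 25 tested of 31 annotated, 10 rose (40%, beside 4.86% of all genes) and 2 fell (8%, beside 5.01%), with a median of 0.21. Without double mutant replicate 2 or triple mutant replicate 1, with library totals or with DESeq2, 1 fell. TIP2 (AT3G26520), a vacuolar aquaporin, had 1135 and 1100 CPM in the triple mutant, against 752 and 736 CPM in the double mutant, a change of 0.59 ± 0.04 (adjusted p = 1.11e-12). TIP2;3, known from roots, rose by 1.3 ± 0.15 (3.27e-08), and PIP2;8 (AT2G16850), a plasma membrane aquaporin, fell by 0.60 ± 0.10 (4.67e-05).

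Growth genes commonly tied to PIF4 were called about as often as all genes. Of 25 genes listed for their link to PIF4, such as auxin-response genes and growth factors, 21 were tested, and 1 rose and 1 fell (4.76% each, beside 4.86% and 5.01% of all genes), with a median of 0.05. The gene that rose was XTH15, with 20.3 and 16.4 CPM in the triple mutant, against 12.7 and 12 CPM in the double mutant (0.57 ± 0.13, adjusted p = 0.00296), and its call was lost without triple mutant replicate 1 (0.128). The gene that fell was ATHB4, a homeodomain factor of the shade response, with 1.60 and 1.16 CPM, against 3.62 and 3.64 CPM in the double mutant (−1.39 ± 0.36, 0.00942). Its call was lost without double mutant replicate 1 (0.0605) or 2 (0.0534) or triple mutant replicate 2 (0.134). Hormone lists held 0 to 3 calls in a direction. Of 11 auxin synthesis genes 0 rose and 1 fell (9.09%), of 21 Aux/IAA genes 1 rose (4.76%) and 0 fell, of 19 SAUR and GH3 genes 3 rose (15.8%) and 0 fell, of 14 brassinosteroid genes 1 rose and 1 fell (7.14% each), and of 18 gibberellin genes 1 rose (5.56%) and 0 fell.

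Among the 11 genes of the PIF family and its close relatives 3 rose (27.3%, beside 4.86% of all genes) and 0 fell. PIF5, which acts alongside PIF4 in growth, had 70.8 and 76.1 CPM in the triple mutant, against 53.1 and 53.6 CPM in the double mutant, a change of 0.46 ± 0.07 (adjusted p = 1.86e-05). PIF7, a factor of the shade and warmth response, rose by 0.41 ± 0.13 (0.0360), and its call was lost without any 1 of the 4 libraries (0.0923 to 0.191) and with DESeq2 (0.132). PIF1, a repressor of seed germination, was at the threshold, with a change of 0.31 ± 0.10 (0.0496). Its call was lost in 12 of 22 settings, with adjusted p-values up to 0.404 (without double mutant replicate 1), 0.154 with DESeq2 and 0.0521 in a fit of the 4 compared libraries.

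Genes of the circadian clock were mostly higher. Of 24 clock genes 11 rose and 1 fell, with a median of 0.26, beside 4.86% and 5.01% of all genes. PRR7, a repressor of the morning loop, had 80.0 and 79.9 CPM in the triple mutant, against 45.7 and 47.5 CPM in the double mutant, a change of 0.78 ± 0.07 (adjusted p = 4.14e-10). RVE7, a MYB factor related to the morning gene CCA1, had 19.6 and 16.5 CPM, against 8.48 and 7.72 CPM in the double mutant (1.15 ± 0.14, 9.50e-08), and GI, which acts in the evening, had 40.2 and 50.1 CPM, against 24.3 and 29.8 CPM in the double mutant (0.74 ± 0.10, 1.36e-06). LNK2, a co-activator of the morning factors, rose by 0.40 ± 0.06 (1.78e-05). Morning, day and evening genes thus stood higher together, and the hour of harvest of each library is unknown here. The count of rises was 7 without double mutant replicate 2, and the count of falls was 0 without triple mutant replicate 2. In the light signalling list 4 of 30 rose (13.3%, beside 4.86% of all genes) and 0 fell, led by BBX24, a B-box factor that acts against HY5 (0.43 ± 0.06, 4.28e-06).

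Photosynthesis genes changed little but in both directions. Of 28 genes 12 rose (42.9%, beside 4.86% of all genes) and 3 fell (10.7%, beside 5.01%), with a median of 0.12. Fewer rose without double mutant replicate 2 or triple mutant replicate 1, and 1 fell with library totals. The summed level was 99585 and 97400 CPM in the triple mutant, against 92647 and 91086 CPM in the double mutant. The light-harvesting gene LHCB1.1 had 4807 and 4611 CPM, against 3558 and 3444 CPM in the double mutant, a change of 0.43 ± 0.04 (adjusted p = 7.08e-09). LHCB1.2 rose by 0.37 ± 0.06, LHCA4 by 0.30 ± 0.04 and LHCA3 by 0.24 ± 0.04. LHCB1.1 and LHCB1.2 are near-identical copies whose shared reads could not be traced. GLK1, a factor that activates chloroplast genes, had 134 and 134 CPM, against 178 and 187 CPM in the double mutant, and fell by 0.45 ± 0.07 (2.21e-05). Of 16 chlorophyll synthesis genes 2 fell (12.5%, beside 5.01% of all genes) and 0 rose.

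Flavonoid and anthocyanin genes, which make pigments and sunscreens, were mostly lower. Of 24 tested 12 fell (50%, beside 5.01% of all genes) and 1 rose (4.17%, beside 4.86%), with a median of −0.31. CHS, the entry enzyme of the pathway, had 252 and 245 CPM in the triple mutant, against 350 and 328 CPM in the double mutant, a change of −0.45 ± 0.06 (adjusted p = 5.54e-07). LDOX, a late enzyme of anthocyanin synthesis, had 9.27 and 7.30 CPM, against 16.1 and 17.3 CPM in the double mutant (−1.01 ± 0.18, 9.82e-05). UGT78D1, a flavonol glycosyltransferase, fell by 0.50 ± 0.08 (1.62e-05). The gene that rose was MYBL2, a MYB repressor of anthocyanin synthesis, with 46.8 and 49.3 CPM, against 34.8 and 31.9 CPM in the double mutant (0.53 ± 0.09, 0.000101). The count of falls was 7 without double mutant replicate 2 or triple mutant replicate 2, and 4 with DESeq2.

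Other lists held single genes with clear changes. LOX2, the chloroplast lipoxygenase of jasmonate synthesis, had 78.2 and 77.5 CPM in the triple mutant, against 165 and 153 CPM in the double mutant, a change of −1.03 ± 0.07 (adjusted p = 9.40e-13). Of 19 jasmonate genes 3 fell (15.8%, beside 5.01% of all genes) and 0 rose. COR47, a cold-induced dehydrin, had 294 and 287 CPM, against 223 and 208 CPM in the double mutant (0.43 ± 0.05, 3.72e-07), while COR15A and 2 others of the 12 cold genes fell (25%, beside 5.01% of all genes). NIA1, a nitrate reductase, had 575 and 598 CPM, against 442 and 417 CPM in the double mutant (0.45 ± 0.05, 8.56e-08), and NIR1, the nitrite reductase of the next step, had 430 and 440 CPM, against 531 and 522 CPM in the double mutant (−0.27 ± 0.05, 0.000241). The transcripts of NIA1 and NIR1, which serve consecutive steps, thus moved in opposite directions, and enzyme levels were not measured. GSTU25, a glutathione transferase, had 12.2 and 16.1 CPM, against 33.2 and 31.9 CPM in the double mutant (−1.20 ± 0.14, 7.37e-08). Of 18 detoxification genes 5 fell (27.8%, beside 5.01% of all genes) and 0 rose. In the lists of abscisic acid (14 tested) and flowering time (15 tested) 0 genes were called. Of 32 chromatin genes 1 fell (3.12%, below the 5.01% of all genes) and 0 rose.

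The same 2 genotypes at 28 °C come from other libraries, and there 933 genes were higher (4.67%) and 1068 lower (5.35%) in the triple mutant. Of the 970 genes that rose at 22 °C, 456 also rose at 28 °C and 6 fell, which is 47.0% of the 22 °C list and 48.9% of the 28 °C list. Of the 1001 that fell, 499 also fell and 0 rose, which is 49.9% of the 22 °C list and 46.7% of the 28 °C list. The sign was shared by 879 of the 970 and by 962 of the 1001, beside 66.6% of all genes tested. Across the 19978 genes, which are not independent replicates, the correlation of the changes was 0.43 (Pearson's r, a description only).

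ACC2 changed by −2.46 ± 0.11 at 28 °C, as at 22 °C, and NAC103 by −3.21 ± 0.36. XTH24 changed by 1.06 at 28 °C as well. PIF4 itself had 81.8 and 84.6 CPM in the triple mutant at 28 °C, against 109 and 99.8 CPM in the double mutant, a change of −0.33 ± 0.08 (adjusted p = 0.00753), and this did not pass the test of a difference from 22 °C (0.545). Of the 44 proteasome genes 34 fell at 28 °C and 0 rose, with a median of −0.39, and 1 of them, AT4G19006, had a change that differed between the temperatures (−0.71 ± 0.14 at 22 °C relative to 28 °C, adjusted p = 0.00392). Of the 16 starvation genes 10 rose and 1 fell at 28 °C, with a median of 0.27. Aliphatic glucosinolate genes make sulfur-containing defence compounds. Of the 19 in the list, 6 fell at 22 °C (31.6%, beside 5.01% of all genes, median −0.19). At 28 °C 16 fell (beside 5.35% of all genes, median −0.48), with 0 that rose at either temperature.

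A direct test of the 22 °C change against the 28 °C change passed for 72 genes with a higher change at 22 °C (0.36%) and for 14 with a lower one (0.0701%). ASN1 had 216 and 210 CPM in the triple mutant at 28 °C, against 86.3 and 91.9 CPM in the double mutant, so its change of 1.26 ± 0.07 there was smaller by 1.5 ± 0.11 (adjusted p = 1.28e-11). SEN1 had 84.3 and 97.5 CPM at 28 °C, against 76.9 and 84.4 CPM in the double mutant, and its change at 22 °C was higher by 1.62 ± 0.15 (9.50e-09). LHCB1.1 was among 7 of 28 photosynthesis genes with a higher change at 22 °C (0.49 ± 0.06, 1.71e-05), and at 28 °C 0 of the 28 rose and 7 fell. CCA1, named after its values were seen, rose at 22 °C (0.42 ± 0.07, 7.99e-05) and fell at 28 °C (−0.33, 0.00261), and these changes differed (adjusted p = 4.81e-05).

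Some of the largest differences lay in genes that changed at 28 °C, while AT3G28220 changed at 22 °C alone. GSTF6, a stress-induced glutathione transferase, had 16.0 and 15 CPM in the triple mutant at 22 °C, against 21.3 and 22.8 CPM in the double mutant, and 5.57 and 5.66 CPM at 28 °C, against 53.8 and 42.9 CPM in the double mutant. GSTF6 thus fell at both temperatures, with changes of −0.51 ± 0.14 (adjusted p = 0.0121) and −3.11 ± 0.15 (1.62e-17), and the 22 °C call was lost without double mutant replicate 2 (0.113) or triple mutant replicate 2 (0.122) and with DESeq2 (0.0697). GSTF7, a related transferase, changed by 0.17 ± 0.17 (0.609) at 22 °C and by −1.87 ± 0.16 (1.09e-10) at 28 °C. AT3G28220, a TRAF-like gene, had 15.9 and 16.0 CPM at 22 °C, against 32.4 and 34.2 CPM in the double mutant, a fall of 1.06 ± 0.12 (2.37e-08), and its change at 28 °C was −0.27 ± 0.12 (0.175).

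**Figure D5:**
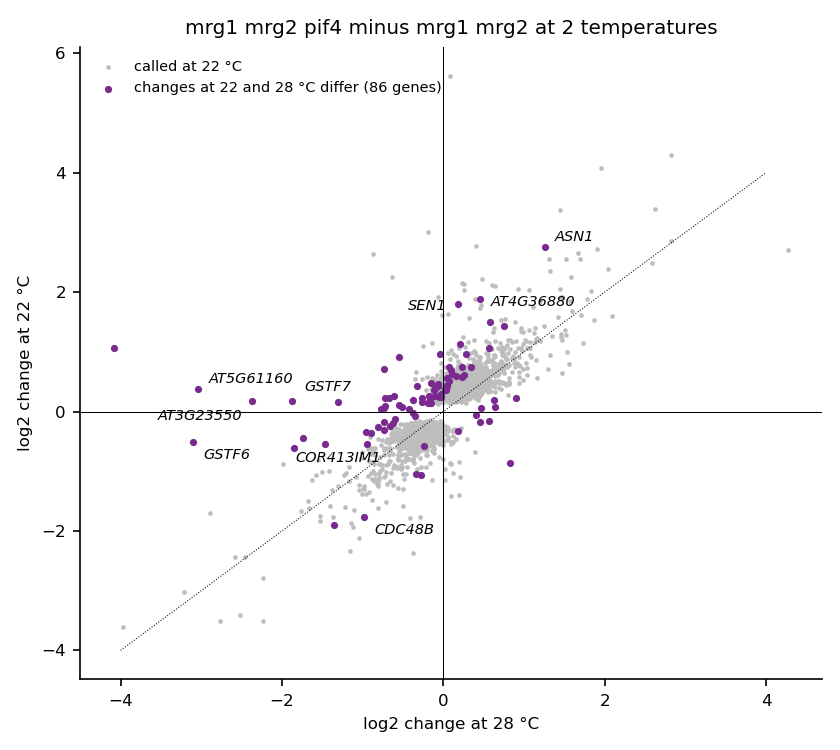
Log2 change of the triple mutant relative to mrg1 mrg2 at 28 °C (horizontal) and at 22 °C (vertical) for genes called at 22 °C (grey) and for the 86 genes whose changes differ between the temperatures (purple), with a dotted line where both are equal. Most grey points lie in the quadrants of equal sign, while GSTF6, GSTF7 and AT5G61160 lie far to the left and ASN1, SEN1 and AT4G36880 lie above the line.

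The pif4 mutation with MRG1 and MRG2 intact, pif4 against WT at 22 °C, also used other libraries. In that comparison 1164 genes were higher in pif4 (5.8%) and 1014 lower (5.05%). Of the 970 genes that rose in the triple mutant 127 rose and 130 fell in pif4, and of the 1001 that fell 208 rose and 121 fell in pif4. The correlation of the changes across genes was 0.000718. Of the 44 proteasome genes 0 were called in pif4 against WT, with a median of 0.08. Of the 293 ribosomal protein genes 90 rose and 1 fell there, of the 28 photosynthesis genes 24 rose and 0 fell, and of the 12 root hair markers 0 rose and 9 fell. In the pif4 libraries at 22 °C, PBB2 had 36.3 and 37.8 CPM, ACC2 12.6 and 13.4 CPM and AT5G20000 33.5 and 33.1 CPM. These levels were nearer to the triple mutant than to the double mutant. None of them was called in pif4 against WT (adjusted p = 0.684, 0.487 and 0.660). ASN1 had 38.2 and 34.8 CPM in pif4, between the triple and the double mutant. Neither the triple nor the double mutant was tested against WT.

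The difference between the changes in the 2 backgrounds, triple mutant against double mutant minus pif4 against WT, was positive for 1227 genes (6.11%) and negative for 1416 (7.05%). PRP3 rose by 1.04 ± 0.11 in the mrg1 mrg2 background and fell by 0.95 in pif4 against WT, a difference of 1.99 ± 0.15 (adjusted p = 2.39e-12), and XTH14 differed by 1.84 ± 0.15 (1.40e-11). PAD1 differed by −1.26 ± 0.11 (2.04e-11), PBB2 by −1.37 ± 0.13 (2.44e-10) and RPT2A by −0.83 ± 0.09 (1.32e-08). ASN1 rose in both backgrounds, by 0.81 in pif4 against WT, and the difference was 1.95 ± 0.13 (2.71e-14). BCB rose by 4.30 in the mrg1 mrg2 background and fell by 1.12 in pif4 against WT. CHS fell in both, by 0.45 in the mrg1 mrg2 background and by 0.60 in pif4 against WT, and the difference of 0.15 ± 0.08 did not pass the test (0.253).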

How the data were processed

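The authors deposited one table of raw read counts per gene for 16 libraries; all values are whole numbers and nothing was normalized. Per the submitters' processing notes, cutadapt, HISAT2, SAMtools and featureCounts were used with build TAIR10; options, annotation and strand setting: not given in the sources used here. Symbols, products, coordinates and upstream sequence came from the TAIR10.1 annotation and genome, in which 32835 IDs had an entry.

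Counts were fitted with edgeR 4.0.16 in R 4.3.3: filterByExpr (min.count 10, min.total.count 15), TMM, and glmQLFit with 6 groups over the 12 libraries that are not WT, tested by the two-sided quasi-likelihood F-test with Benjamini-Hochberg adjustment over all genes. This left 6 residual and 29.1 prior degrees of freedom and a common biological coefficient of variation of 5.74%. Comparisons with pif4 against WT used all 16 libraries (8 groups, 20075 genes). The script was tested on simulated data. Replicates differed by more than counting noise, with a mean chi-square per gene of 4.00 in the triple mutant and 3.66 in the double mutant. Alternatives were other scalings, filters, library sets, DESeq2 1.42.0, a replicate block and each library left out.

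The comparison, gene lists and tests were chosen with earlier results of these data known. The lists of proteasome, ribosomal, extensin and aquaporin genes were added after the data were seen, and so support nothing by themselves. Named genes were MRG1, MRG2 and PIF4, the 15 largest changes per direction (called, libraries not overlapping, higher group averaging 5 CPM or more), up to 4 members per list by smallest p, and the 5 largest differences per direction between temperatures and between backgrounds. The text names a part of these. ACC1, CCA1, CDC48C, PAA1, PBB1, RPT5A, and the 4 proteasome genes not called, RPT6A, AT1G53780, AT5G45620 and RPN13, were named after their values were seen. Motifs were searched in the 250 bases upstream of each tested gene.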

Additional observations from a re-analysis of the deposited data

Results flagged for a closer look

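The following genes are given because their change in the triple mutant relative to the double mutant at 22 °C differed from the change of the same genotypes at 28 °C in a direct test (22 °C minus 28 °C, log2, edgeR's quasi-likelihood test adjusted over all genes). Of 97 genes checked, 22 passed. The 97 are the genes named, and some were named for this same difference or after their values were seen. The count is therefore no measure of how common such differences are. Over all 19978 genes tested, 72 passed with a higher change at 22 °C (0.36%) and 14 with a lower one (0.0701%).

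Of the 16 starvation genes 3 had a higher change at 22 °C, ASN1 and SEN1 among them, and of the 25 aquaporins 1 did, TIP2. The differences were 1.5 ± 0.11 for ASN1, 1.62 ± 0.15 for SEN1, 1.42 ± 0.24 for the cysteine proteinase gene AT4G36880 and 0.35 ± 0.06 for TIP2. Of the 44 proteasome subunit genes 1 had a lower change at 22 °C, AT4G19006, as did 1 of 7 activator, assembly and CDC48 genes, CDC48B, and AT5G20000, which is in neither list. The differences were −0.79 ± 0.17 for CDC48B, −0.71 ± 0.14 for AT4G19006 and −0.55 ± 0.13 for AT5G20000.

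A higher change at 22 °C was found for 7 of 28 photosynthesis genes, 1 of 30 light signalling genes (BBX24) and 3 of 24 clock genes. The differences were 0.49 ± 0.06 for LHCB1.1, 0.35 ± 0.08 for LHCB1.2, 0.32 ± 0.06 for LHCA4, 0.27 ± 0.06 for LHCA3, 0.39 ± 0.09 for BBX24, 0.50 ± 0.09 for LNK2 and 0.75 ± 0.10 for CCA1. Genes that fell more at 28 °C had positive differences too, of 2.60 ± 0.21 for GSTF6, 2.04 ± 0.23 for GSTF7, 0.93 ± 0.15 for the cold-regulated membrane protein gene COR413IM1 and 0.54 ± 0.11 for CYP79F1 of glucosinolate synthesis. AT5G61160, annotated as an acyltransferase, differed by 3.42 ± 0.45 and AT3G23550, a MATE efflux carrier, by 2.55 ± 0.44, and neither was called at 22 °C. AT3G28220 differed by −0.79 ± 0.17, and AT1G48750, a lipid-transfer protein gene, by −0.73 ± 0.14, which at 22 °C had 49.5 and 41.2 CPM in the triple mutant, against 54.7 and 46.9 CPM in the double mutant.

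Of 11 genes checked between backgrounds (triple mutant against double mutant minus pif4 against WT at 22 °C), 10 passed. The 11 were picked from the genes named, with results known, so this count reflects the choice. Over all 20075 genes tested, 1227 were higher (6.11%) and 1416 lower (7.05%). The differences were 1.95 ± 0.13 for ASN1, 5.42 ± 0.48 for BCB, 1.99 ± 0.15 for PRP3 and 1.84 ± 0.15 for XTH14. They were −2.63 ± 0.19 for ACC2, −1.37 ± 0.13 for PBB2, −1.26 ± 0.11 for PAD1, −0.83 ± 0.09 for RPT2A, −0.38 ± 0.06 for LHCB1.1 and −1.06 ± 0.14 for KNOLLE, a syntaxin of dividing cells. Groups of 2 libraries allow no test for a library that stands apart.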

How the results depend on the processing

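Calls rest on 2 libraries a group. With DESeq2, 599 genes rose and 591 fell at 22 °C, and with library totals as the scaling 576 fell. Over the 12 left-out libraries 540 to 1008 rose and 507 to 1039 fell. At 28 °C the counts were 516 higher and 669 lower with DESeq2, 571 lower with library totals, and 515 to 958 higher and 579 to 1182 lower with a library left out. For the difference between temperatures, library totals gave 32 higher and 5 lower, leaving out AT3G41768 and the organelle genomes gave 119 and 36, and left-out libraries gave 39 to 92 and 2 to 19. For pif4 against WT, DESeq2 gave 763 higher and 611 lower, library totals 559 higher, and left-out libraries 691 to 1271 and 503 to 1038. For the difference between backgrounds, DESeq2 gave 736 higher, library totals 694 lower, and left-out libraries 802 to 1252 and 1025 to 1477. The cause of these shifts was not tested.

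With a replicate block 1082 genes rose and 1152 fell at 22 °C, which include 969 of the 970 and all 1001 calls, and the difference between temperatures had 29 lower. Over all genes, same-numbered libraries correlated by only 0.0105 to 0.0682 in their deviations, and the main fit did not take the numbers as pairs. The numbers did go with some RNA shares. In every group of the series, the shares of AT3G41768 and of mitochondrial genes were higher in replicate 2 than in replicate 1. With the block 40 plastid genes fell, against 11 in the main fit, so that count depended on the pairing. Of the 97 genes named, 86 kept their direction and call in every setting run, of which DESeq2 gave no adjusted p for some (15 of the 97). Direction turned, without a call, for PIF4 (−0.168 to 0.0613 over left-out libraries), AT1G53780 (−0.157 to 0.0308), RPN13 (−0.237 to 0.0264), CDC48C (−0.00627 to 0.116) and ACC1 (−0.0624 to 0.0294, and 0.00721 with library totals). The median of all genes was 0.0201 with library totals, against −0.01 as reported. Genes under about the 3-count floor could not be judged at this depth.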

Other observations

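Of 18 mitosis genes 3 fell (16.7%, beside 5.01% of all genes) and 0 rose, with a median change of −0.28 and 13 below 0. Of 15 DNA replication genes 1 fell (6.67%, near the share of all genes) and 0 rose, with a median of −0.23 and 14 below 0. The mitosis count was 0 without triple mutant replicate 1, 1 without double mutant replicate 2 or triple mutant replicate 2, 1 with library totals as the scaling and 0 with DESeq2. KNOLLE, a syntaxin of the forming cell plate, had 36.1 and 43.1 CPM in the triple mutant, against 45 and 52.2 CPM in the double mutant (−0.29 ± 0.10, adjusted p = 0.0442), and the call was lost in 7 of 22 settings, among them without triple mutant replicate 1 (0.443), double mutant replicate 2 (0.433) or either pif4 library at 22 °C (0.0511 and 0.0517). In pif4 against WT at 22 °C, 12 of the 18 mitosis genes rose and 0 fell.

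Few genes of the stress lists were called. FRO3, a ferric reductase, had 69.7 and 68.0 CPM in the triple mutant, against 55.8 and 51.2 CPM in the double mutant, and rose by 0.36 ± 0.08 (adjusted p = 0.000972). Of the 22 iron genes tested 1 rose (4.55%, beside 4.86% of all genes) and 2 fell (9.09%, beside 5.01%). In the heat shock list, 2 of 22 rose (9.09%) and 1 fell (4.55%). Of 13 touch and wounding genes 1 rose (7.69%) and 0 fell, and of 11 salicylic acid genes 1 rose (9.09%) and 0 fell. Such counts of 1 or 2 genes are not set apart from the shares of all genes.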
